A study of Mus musculus with 8 samples.

Results

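The sites described here are 931 Ezh2 peaks of TT2 mouse embryonic stem cells that both wild-type libraries held and that had no counterpart in the knockout peak list. TT2 cells come from a cross of a C57BL/6 female and a CBA male. The members were chosen from the 11766 peaks of wild-type library 1 by 4 steps. Of these peaks, 11593 lay on chromosomes 1 to 19, 11067 of those spanned less than 4000 bp, 2076 of those overlapped a peak of wild-type library 0 by at least 1 bp, and 931 of those overlapped no knockout peak. These 931 are called the uncalled sites, and the other 1145 of the 2076, which overlapped a knockout peak, the kept sites. "Uncalled" refers to a peak list and not to a measured absence of Ezh2, because the lists hold no read counts.

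The Ezh2 ChIP-seq data comprise 2 wild-type libraries, numbered 0 and 1 in the labels, plus 1 library of G9a-/-GLP-/- TT2 cells, which lack both enzymes. The labels give the knockout library the number 0 and both G9a libraries the number 1. G9a ChIP-seq covers 1 library of wild-type cells and 1 of G9a-/-GLP-/- cells rescued with wild-type G9a, which by their label still lacked GLP. All 5 libraries came from mES cells grown with LIF and fixed with 1% formaldehyde for 10 min, and for G9a a step with 2 mM of the protein crosslinker DSG for 45 min came first. The source name of the knockout Ezh2 sample gives TT2 alone, and its title and description, which name the knockout, were followed. No label says whether the knockout or the rescue is 1 clone, or whether the wild-type libraries came from separate cultures.

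Ezh2 is the enzyme of Polycomb repressive complex 2 and places methyl groups on lysine 27 of histone H3. In embryonic stem cells this complex is known to sit mainly at CpG-rich promoters of silent developmental genes, often in broad domains. G9a and GLP form a complex that methylates lysine 9 of histone H3. The comparison asks which short, reproducible Ezh2 sites were no longer called in cells without the G9a and GLP enzymes, and what set them apart.

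The lists held 5425 peaks in wild-type Ezh2 library 0, 11766 in library 1, 6198 in the knockout, 67318 in wild-type G9a and 83721 in rescue G9a. The depth of each library is unknown. Each peak carries the score of the authors' peak caller, which MACS computes from the peak's p-value (minus 10 × log10 of p). Scores were ranked and grouped only within a list, but some alternative settings applied 1 score limit to several lists. The lowest scores were 43.02 in library 0, 30 in library 1 and 43.03 in the knockout, so the lists of library 0 and the knockout began at nearly the same score. Since the knockout has a single library, no test of wild type against knockout was run. The 95% intervals given below are exact binomial (Clopper-Pearson) and cover the counting of sites only, since neighbouring sites are not independent.

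Uncalled sites made up 44.8% of the 2076 short reproducible sites. Among all 11067 short library 1 peaks, whether or not library 0 held them, 84.5% had no knockout peak. These shares follow from the selection and are given as a description. The count depends on the criteria. Without library 0 it was 9357 of 11067 peaks, and without library 1 it was 2580 of 5315 library 0 peaks. With wild-type scores of at least 100 it was 267 of 1037 (25.7%), and with library 1 peaks within 1 kb merged it was 616 of 1357 (45.4%).

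The disagreement in the opposite direction gives a yardstick for the uncalled sites. Against the 931 short library 1 peaks found in library 0 and not in the knockout, 565 were found in the knockout and not in library 0, a ratio of 1.65. The excess lay among strong peaks. In the highest of 10 equal groups by library 1 score (492 and above), 237 uncalled sites stood against 22 peaks found in the knockout alone, a ratio of 10.8. The ratio was 2.19 in the ninth group (342 against 156) and 1.22 in the eighth (181 against 148). In the 7 lower groups together it was 0.715, with 171 uncalled sites against 239 peaks found in the knockout alone. Taken over these 7 groups, uncalled sites were thus no more numerous than peaks missing from library 0, while in the highest group they were. Each side of the comparison rests on 1 library, both numbered 0 in the labels, while library 1 supplied the peaks. With the knockout list shortened to its 5425 best peaks, as many as library 0 held, the ratio in the highest group was 12.6 (264 against 21).

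**Figure D1:**
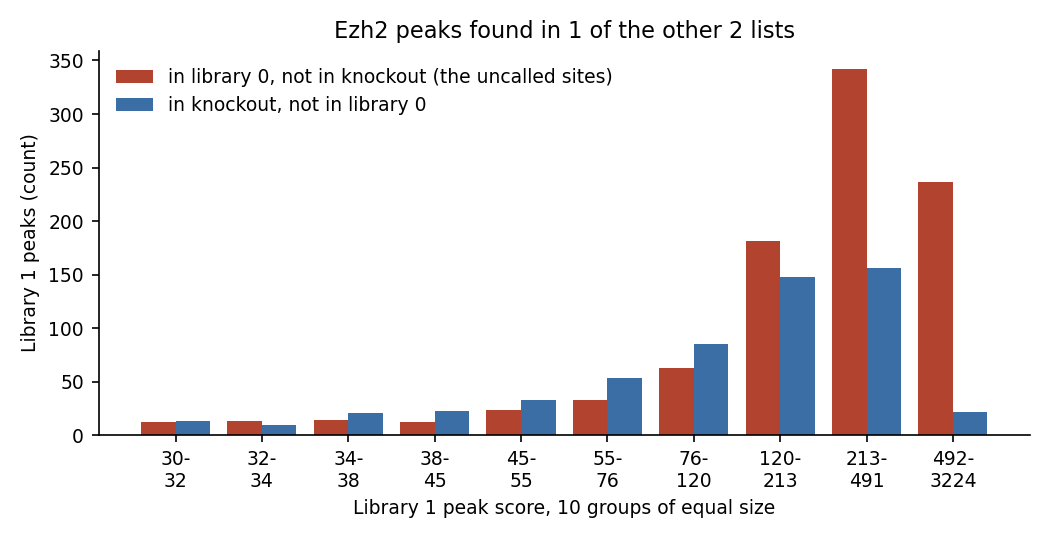
Number of short library 1 Ezh2 peaks (vertical axis) in 10 groups of equal size by library 1 score (horizontal axis), for peaks found in library 0 and not in the knockout and for peaks found in the knockout and not in library 0. The bars are close up to the eighth group (181 and 148) and part in the ninth (342 and 156) and the highest (237 and 22).

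Uncalled sites were narrower and weaker than kept sites. Among all short library 1 peaks, 579 of the 931 lay in the upper 2 of the 10 score groups above. Most of the 1145 kept sites did too, with 265 in the ninth group and 809 in the highest. Overlap with library 0 itself favours high scores, since library 0 held 94.6% of the highest group and 1.08% of the lowest. The width of uncalled sites ran from 245 to 3987 bp, with a median of 1510 bp and quartiles of 984 and 2062 bp, against a median of 2392 bp for kept sites. Their library 1 score had a median of 295 (quartiles 153 and 497), against 763 for kept sites. Their library 0 score had a median of 67.2 (quartiles 52.2 and 112), not far above that list's lowest score of 43.02, against 159 for kept sites. The ranges overlapped almost fully: the highest library 1 scores were 2557.03 among uncalled and 3223.52 among kept sites.

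The uncalled share fell steeply with score. Over 10 equal groups of the 2076 sites by library 1 score it went from 89.9% (187 of 208; 85.0 to 93.6) in the lowest group to 51.7% (107 of 207) in the fifth and 3.86% (8 of 207; 1.68 to 7.47) in the highest. By library 0 score it was 69.6% (378 of 543) for scores under 60, 26.0% (271 of 1042; 23.4 to 28.8) at 100 and above, 12.1% (64 of 528; 9.46 to 15.2) at 200 and above, and 4.26% (6 of 141; 1.58 to 9.03) at 500 and above. By width it went from 86.1% in the narrowest group (220 to 861 bp) to 14.5% in the widest (3360 to 3997 bp). Score and width go together, and at equal score the share fell with width in the lowest score groups and showed no steady change in the higher ones. In the lowest score group it was 91.0% of the 189 narrowest sites and 78.6% of 14 in the second width group. In the second score group it was 85.6% of the 97 narrowest, 71.25% of 80 and 72.0% of 25. In the third score group it was 69.2% of the 65 narrowest sites, 62.5% of 80, 48.8% of 43 in the middle width group and 58.8% of 17 in the fourth. In the fourth score group it was 50.0% of the 26 narrowest, 66.2% of 77, 53.0% of 66, 46.7% of 30 and 33.3% of the 9 widest sites. In the fifth score group the uncalled share was 50.0% of the 18 narrowest, 52.2% of 69, 53.8% of 65, 47.6% of 42 and 53.8% of the 13 widest sites. In the seventh it was 32.0% of 25 in the second width group, 37.5% of 64 in the middle one and 17.5% of the 40 widest. In the ninth it ran the other way, from 6.35% of 63 in the fourth width group to 17.4% of the 109 widest.

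**Figure D2:**
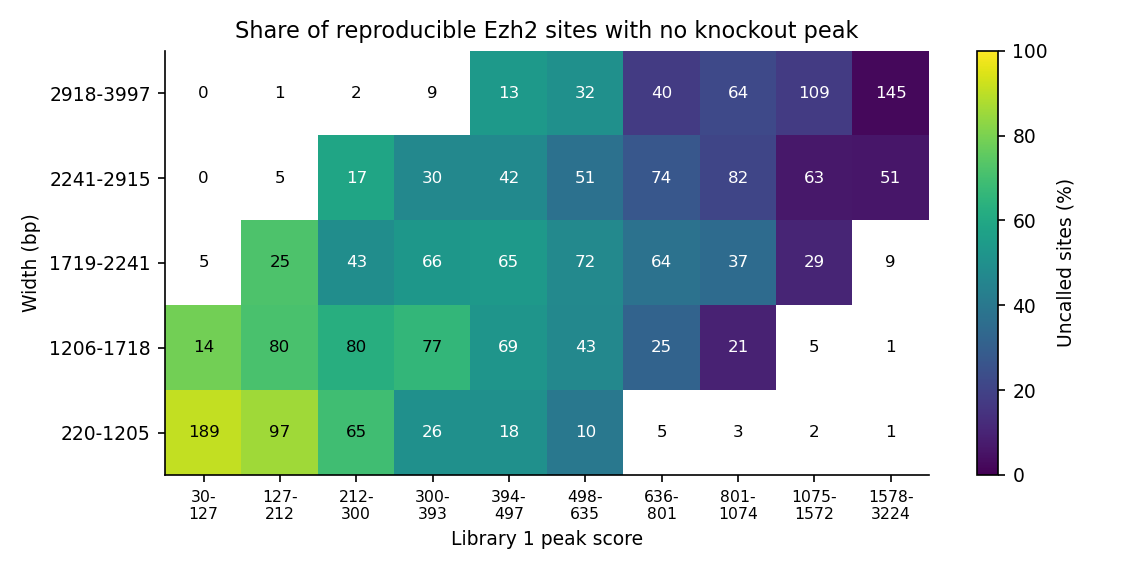
Share of the 2076 sites that were uncalled (colour, in percent) by library 1 score (horizontal axis, 10 groups) and width in bp (vertical axis, 5 groups), with the number of sites printed in each cell and no colour where a cell holds fewer than 10. Colour changes from left to right, from 89.9% in the lowest score group to 3.86% in the highest, and less, and not in every score group, from bottom to top.

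Uncalled sites were next set against kept sites of equal score and width. For this comparison, and for the others with matched kept sites, the 2076 sites were split into 10 score groups by 5 width groups, and kept sites were weighted to the number of uncalled sites in each cell. This left 930 uncalled and 1133 kept sites, with median library 1 scores of 295 and 294, widths of 1510 and 1536 bp and library 0 scores of 67.2 and 71.7. The matched kept sites had a median knockout score of 66.5 (quartiles 51.5 and 97.1), against 92.7 for all kept sites, and 39.4% of them scored under 60 where the list began at 43.03. Their library 0 scores (quartiles 54.6 and 126) lay about as near the start of that list, 43.02. Kept sites hold a knockout peak by definition, so these scores do not show where the uncalled sites lay. Knockout peaks covered a median of 435 bp of a matched kept site and library 0 peaks 467 bp. In the uncalled sites library 0 peaks covered a median of 431 bp, or 36.3% of the site's width, against 39.1% in the matched kept sites.

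The strongest uncalled sites had high scores in both wild-type libraries, and are named by mm9 position, since no annotation of that build was used here. The site with the highest mean rank, chr13:51942020-51944118 (2099 bp), scored 639.43 in library 0 and 1811.62 in library 1, and its nearest knockout peak lay 277845 bp away. Next came chr12:84825503-84828591, with scores of 532.54 and 1927.84 in libraries 0 and 1 and no knockout peak within 275815 bp. The third, chr10:13686973-13689041, scored 524.12 and 1867.02, and the nearest knockout peak was 875716 bp away. All 3 lay more than 100 kb from any knockout call. Of all 931 uncalled sites, 442 (47.5%) had a knockout peak within that distance.

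The kept sites nearest to these 3 in score and width, which match them only loosely, were called in the knockout with scores from 63.72 to 193.4. The kept site chr12:5380102-5382279 (library 0 score 687.63, library 1 score 1908.49) scored 63.72 in the knockout. The kept site chr13:58907498-58910544 (645.49 and 2196.55) scored 193.4 there, and chr12:111514528-111516569 (493.91 and 1572.27) scored 177.94. The next knockout peak lay 1483089, 352956 and 948 bp from these kept sites, so long distances to another knockout peak occurred among them too.

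The other 5 of the 8 highest-ranked uncalled sites differed in how near a knockout peak came. For chr1:74839381-74842008 (369.28 in library 0 and 1755.24 in library 1) a knockout peak lay 283 bp away, and for chr10:72560658-72563605 (437.45 and 1229.21) 900 bp away. For chr7:90015648-90019414 (444.07 and 1519.61) it lay 17293 bp away. For chr9:64232879-64235551 (307.04 and 1638.22) and chr6:39820261-39823833 (436.31 and 1203.12) it lay 364283 and 765330 bp away. None of the 8 held a wild-type G9a peak. Those on chr12, chr9 and chr6 held rescue G9a peaks with scores of 21.31, 32.19 and 44.83, low in a list that began at 20. Of all 931 uncalled sites, 15.6% held a wild-type and 18.2% a rescue G9a peak, and 8 sites are too few to set against these shares.

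Sites on either side of the width limit were as follows. Just under it were chr1:175295308-175299294 (3987 bp; 51.23 in library 0 and 285.82 in library 1), chr14:104861625-104865608 (3984 bp; 219.21 and 1073.9) and chr10:13682793-13686758 (3966 bp; 135.7 and 801.45). The last of these lies 214 bp from the third-ranked uncalled site. Just over the limit, and therefore left out, were chr1:39248626-39252656 (4031 bp; 821.53 and 2695.16), chr3:5209890-5213984 (4095 bp; 147.44 and 1509.69) and chr5:4754918-4759097 (4180 bp; 582.39 and 1752.77). The library 1 scores of the 3 sites over the limit were all higher than those of the 3 under it. Of the 520 reproducible sites of 4000 bp or more, 20 had no knockout peak.

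By distance to the nearest knockout peak, a minority of uncalled sites adjoined a knockout call and a majority had none within 50 kb. A knockout peak lay within 1 kb of 124 uncalled sites (13.3%), between 1 and 50 kb from 244 (26.2%) and beyond 50 kb from 563 (60.5%). The median distance was 130310 bp and the quartiles were 5726 and 413271 bp. At the edge of the overlap rule, 19 uncalled sites had a knockout peak within 100 bp and 62 within 300 bp, and 3 kept sites were covered by knockout peaks over less than 100 bp. The nearest were chr19:6497790-6498319 (17 bp away), chr18:37891645-37892220 (22 bp) and chr5:28489497-28490025 (26 bp), with widths of 530, 576 and 529 bp. The farthest were chr13:3357414-3360570 (6130821 bp; 129.45 in library 0 and 1389.24 in library 1), chr14:98566816-98568831 (4277192 bp) and chr4:28740204-28741133 (3585522 bp).

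Knockout peaks were sparser around uncalled sites than around kept sites of equal score and width. Within 50 kb, 39.6% of uncalled sites had a knockout peak, against 52.8% of matched kept sites with a knockout peak other than the one on the site. The medians were 130310 and 34881 bp. For library 0 the shares within 50 kb were alike, at 44.5% of uncalled and 44.6% of matched kept sites, with medians of 98364 and 94378 bp. At short range the lists ran in opposite directions. Within 1 kb, 13.3% of uncalled and 19.3% of matched kept sites had another knockout peak, and 24.8% and 18.8% another library 0 peak. Within 5 kb the library 0 shares were 33.4% and 26.8%. The difference of -13.3 points was -17.5 without library 0 and -23.3 without library 1. The knockout list chose the sites and supplied the distances, so this is a description and not an independent measure.

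**Figure D3:**
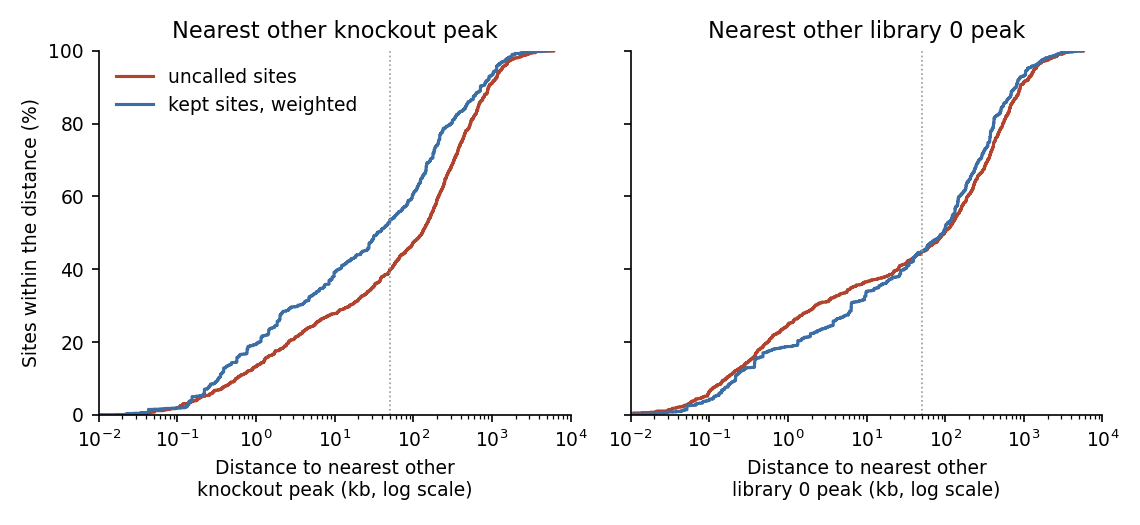
Share of sites (vertical axis, percent) whose nearest other knockout peak (left) or library 0 peak (right) lies within a given distance (horizontal axis, kb, log scale), for uncalled sites and for kept sites weighted to equal score and width, with a dotted line at 50 kb. The curves part for knockout peaks (39.6% and 52.8% at 50 kb) while for library 0 peaks they meet near 50 kb (44.5% and 44.6%) and lie the other way round at 1 kb (24.8% and 18.8%).

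Uncalled sites were about as isolated in wild-type cells as kept sites. No other site of both wild-type libraries lay within 50 kb of 56.0% of uncalled sites (521), and at matched score and width the values were 55.9% for uncalled and 57.6% for kept sites. At short range uncalled sites had a reproducible neighbour somewhat more often, within 1 kb in 28.2% of cases against 21.6%. The nearest library 1 peak of any kind lay a median of 331 bp from uncalled and 426 bp from matched kept sites. This result depended on requiring both libraries. Without library 0, 28.4% of uncalled and 19.7% of kept sites were isolated, and without library 1, 32.6% and 14.6%, which turned the difference from -1.73 to 8.75 and 18.0 points.

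The state of neighbouring sites was compared next. Among uncalled sites with another reproducible site within 10 kb, that neighbour was uncalled too in 46.2% of cases (157 of 340), against 32.5% for matched kept sites. Over all reproducible sites of any width, from which the neighbours come, 36.6% (951 of 2596) were uncalled, which lies between these values. Among the short ones alone it was 44.8%. The neighbours themselves were not matched for score or width. Reproducible sites of any width no more than 10 kb apart were then joined into loci. Of the 931 uncalled sites, 591 (63.5%) were the only site of their locus, 125 (13.4%) lay in 59 loci of several sites with no knockout peak on any of them, and 215 (23.1%) lay in 177 loci with both uncalled and kept sites. Single sites were common among kept sites too. Of the 2596 sites of any width, 599 uncalled and 952 kept ones were alone in their locus, and 397 lay in loci of several sites, all kept. In 165 of those 177 mixed loci (93.2%) the uncalled sites had the lower median library 1 score, and in 152 (85.9%) the lower median width. A kept site of 4000 bp or more was part of 79 of them, so some uncalled sites shared a locus with a broad site that was still called. The 931 sites are under 4000 bp by the rule, so in such loci the selection itself favours a lower width. The uncalled share also falls with score and width over all sites, and the counts to expect from that were not computed.

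The largest loci with every site uncalled held 6 and 4 sites, and 5 loci held 3. The first, chr2:17946812-17979723, spanned 32912 bp with library 1 scores of 125 to 2563.11, and 3 of its 6 sites were under the width limit. The nearest knockout peak to any of its sites was 50238 bp away. The second, chr13:117083729-117102337, held 4 uncalled sites with library 1 scores of 476 to 657 and no knockout peak within 1162468 bp. Of the 5 with 3 sites, the first by position, chr2:33430672-33440003, held sites with scores of 128 to 151, and a knockout peak lay 30345 bp away. These loci were chosen after their values were seen.

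G9a peaks were about as frequent on uncalled sites as on kept sites, and little more frequent than on all short library 1 peaks. The latter include both kinds of site and were not matched for width. A wild-type G9a peak lay on 145 uncalled sites (15.6%; 13.3 to 18.1) and on 170 kept sites (14.8%; 12.8 to 17.0), against 14.1% of all 11067 short library 1 peaks. At matched score and width the shares were 15.6% and 14.4%. A rescue G9a peak lay on 169 uncalled sites (18.2%; 15.7 to 20.8) and on 225 kept sites (19.7%; 17.4 to 22.1), against 16.0% of all short library 1 peaks, and the matched shares were 18.2% and 16.5%. Both lists had a peak on 64 uncalled sites (6.87%), against 5.93% of all short library 1 peaks. The matched difference for wild-type G9a, 1.17 points, was smaller than the counting intervals and changed sign without library 0 (-2.42 points) and with G9a scores of at least 100 (-0.476 points).

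Most of the G9a peaks on uncalled sites were weak, and so were those on kept sites. On uncalled sites the median score was 31.0 in the wild-type list and 33.2 in the rescue list, both of which began at 20. There, 15 of 145 and 24 of 169 reached 100. On kept sites the medians were 32.0 and 30.7, and 15 of 170 and 39 of 225 reached 100. The highest-ranked uncalled sites with peaks in both G9a lists were chr9:78288999-78291990 (499.83 in Ezh2 library 0; wild-type G9a score 23.14, rescue G9a score 26.64) and chr2:149655778-149658001 (401.66; 45.93 and 24.98). They were followed by chr1:154801082-154804611 (294.1; 85.56 and 89.71), chr1:125940420-125943816 (166.96; 103.46 and 39.97) and chr12:56698736-56702518 (172.8; 398.36 and 386.71). The last of these stood out, with a strong G9a peak in both lists. All 5 lay more than 100 kb from the nearest knockout Ezh2 peak. Of all 931 uncalled sites, 442 (47.5%) had a knockout peak within 100 kb.

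G9a overlap varied among the uncalled sites with their width and surroundings. It rose from 8.56% (28 of 327; 5.77 to 12.1) in the narrowest of 5 width groups to 27.5% (30 of 109; 19.4 to 36.9) and 26.8% (19 of 71; 16.9 to 38.6) in the wider ones, where kept sites stood at 16.3% and 17.4%. In those wider groups together, chosen after their values were seen, 27.4% of uncalled sites (49 of 179) and 19.9% of kept sites of equal score and width held a wild-type G9a peak, and 28.5% and 17.3% a rescue G9a peak. In the 3 narrower groups the shares were 12.8% and 13.1%, and 15.7% and 16.3%. Of the 124 uncalled sites within 1 kb of a knockout peak, 5 held a wild-type G9a peak (4.03%; 1.32 to 9.16), against 103 of the 563 with none within 50 kb (18.3%; 15.2 to 21.7). The sites beside a knockout peak were narrower, at a median of 1252 bp against 1567 bp, and 84.7% of them had another reproducible Ezh2 site within 10 kb, against 19.01%. The part of width in this difference was not tested. No G9a library from knockout cells was analysed here to give a background for the G9a peaks.

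**Figure D4:**
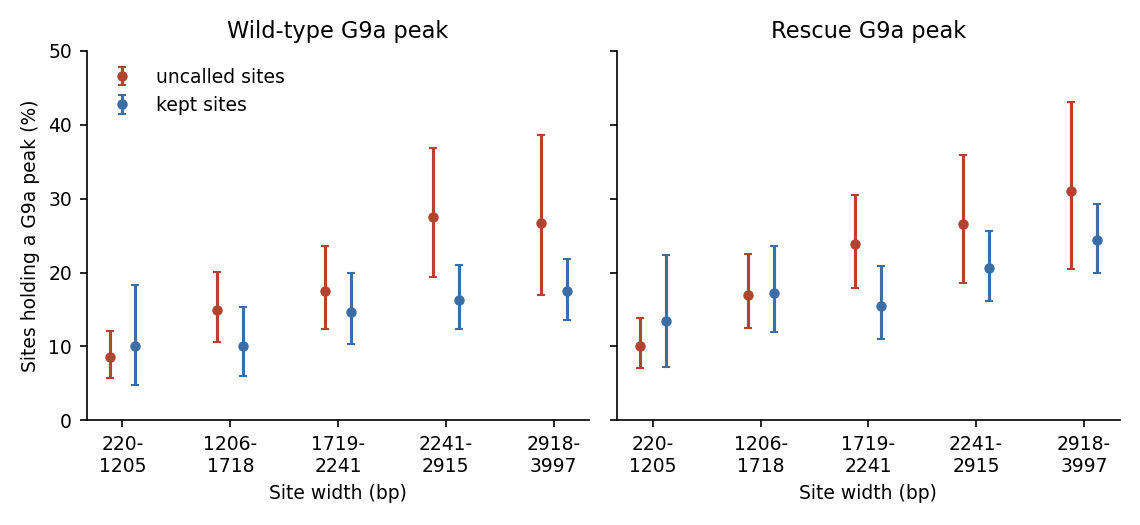
Share of sites holding a wild-type (left) or rescue (right) G9a peak (vertical axis, percent) in 5 groups by width in bp (horizontal axis), for uncalled and kept sites, with exact binomial 95% intervals. Wild-type values rise from 8.56% to 26.8% in uncalled sites and from 10.1% to 17.4% in kept sites, with overlapping intervals in each group, and sites are not matched for score here.

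Uncalled sites were unevenly spread over the autosomes. The uncalled share was highest on chromosome 13 (60.3%; 70 of 116; 50.8 to 69.3) and chromosome 1 (59.7%; 89 of 149; 51.4 to 67.7). It was lowest on chromosome 15 (33.7%; 29 of 86; 23.9 to 44.7), chromosome 11 (35.8%; 59 of 165; 28.5 to 43.6) and chromosome 8 (35.8%; 39 of 109; 26.8 to 45.5). The number of peaks in the whole lists moved with this in part. Chromosomes 1 and 13 had the lowest ratios of knockout to library 0 peaks, at 0.843 and 0.907, and chromosomes 8 and 11 the highest, at 1.62 and 1.60. On chromosome 15 the ratio was 1.21. Chromosome 19 had nearly the same ratio (1.20) with a high uncalled share (52.1%), and chromosome 3 a low ratio (0.964) with a share of 42.9%. The sites themselves enter these totals, and the part of the chromosome-wide numbers in the uncalled shares was not tested.

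On chromosomes 8 and 11 the uncalled share was lower than on the other autosomes in each of 5 score groups. These chromosomes were picked with their values known. The median library 1 score of the sites was lower there than on the other autosomes, at 454 against 507. Their median width was larger, at 2252.5 against 1918 bp, and wider sites were less often uncalled over all autosomes. The part of width in this difference was not tested. In the upper 2 of 5 score groups, 5 of 64 and 0 of 38 sites on chromosomes 8 and 11 were uncalled (7.81% and 0%), against 28.8% of 351 and 9.02% of 377 on the other autosomes. In the 3 lower groups the shares were 79.4%, 41.4% and 37.3% against 84.4%, 61.3% and 49.7%. Without these chromosomes 833 of 1802 sites were uncalled (46.2%), and the ratio of uncalled sites to peaks found in the knockout alone was 1.82 overall and 10.7 in the highest score group.

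**Figure D5:**
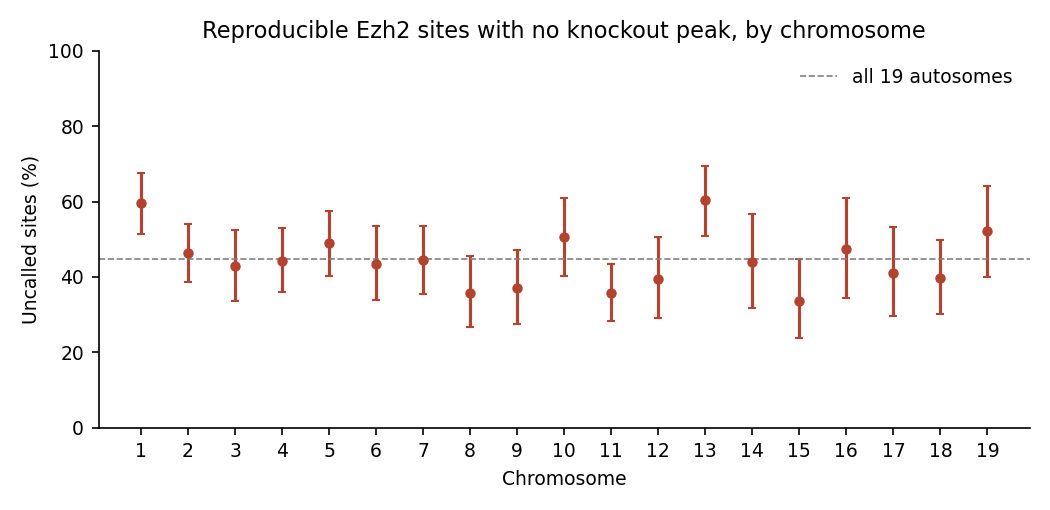
Share of reproducible short Ezh2 sites with no knockout peak (vertical axis, percent) on each autosome (horizontal axis), with exact binomial 95% intervals that cover the counting of sites only and a dashed line at the share over all 19 autosomes. Chromosomes 1 and 13 (59.7% and 60.3%) lie above the line, and chromosomes 8 and 11 (both 35.8%) below it.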

How the data were processed

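Peak lists of 5 ChIP-seq libraries were used, 1 per library, and the 3 input samples were not analysed here. The submitters' processing notes name Bowtie 0.12.7, MACS 1.4 and mm9. Both wild-type inputs were pooled as the control for Ezh2 and G9a, per the series' design text. Neither the control of the knockout and rescue lists nor the call threshold is given in the sources used here. All deposited lists give chromosome, start, end and a score per peak, made by the authors' peak caller. Depth is unknown.

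Groups came from sample titles. Overlap meant at least 1 bp, and distances run from edge to edge. Positions are 1-based on mm9. Kept sites were weighted to the uncalled sites over 10 library 1 score groups by 5 width groups, and cells without both kinds of site were left out. No test between conditions was run, because the knockout and each G9a group have 1 library and the sites were chosen on the same lists. The procedure was tested on simulated data.

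Named sites are the 8 of highest mean rank of both wild-type scores, the 3 nearest to and 3 farthest from a knockout peak, 3 on either side of the width limit, the 5 highest-ranked with both G9a lists, and the kept sites nearest to the first 3. The members, comparisons and lists were chosen with earlier results of these data known. Alternatives varied overlap, score and width limits, list length, merging, chromosomes, matching and the wild-type libraries. No genome or annotation of mm9 was used, so no gene is named and no sequence printed. Computations used Python 3.11.15, numpy 2.4.6, scipy 1.17.1 and matplotlib 3.10.9.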

Additional observations from a re-analysis of the deposited data

How the results depend on the processing

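The settings without chromosomes 8 and 11, the fixed top score group, and the leave-one-library-out values of the matched differences were added after seeing the data. The number of uncalled sites stayed within 1.5 times of 931 in 8 of 12 alternatives. It was 267 with wild-type scores of at least 100 and 616 with library 1 peaks within 1 kb merged, both of which enter fewer sites, and it ranged from 2580 to 9357 when each wild-type library was left out. The ratio of uncalled sites to peaks found in the knockout alone stayed above 1 in all 6 alternatives (1.59 to 2.22): it was 2.22 with library 1 scores of at least 100 and 1.96 with the shortened knockout list. In the highest score group it ranged from 8.44 to 12.6. The difference in knockout peaks within 50 kb was negative in all 6 alternatives, from -23.3 to -17.5 points without either wild-type library and from -12.6 to -11.1 in the others. The difference in isolation was -5.57 points when each of 521 uncalled sites was paired with a kept site within 0.1 of the rank range, a limit set after seeing the data, and 8.75 to 18.0 points when a wild-type library was left out; the cause was not tested. The difference in G9a overlap ranged from -2.42 to 2.85 points over 11 alternatives, which include the rescue list and peaks of both lists, and 2 of them lay below 0. It was -2.42 points without library 0, 2.14 without library 1 and 2.85 with G9a peaks up to 1 kb away counted. No paired analysis was possible because the knockout has 1 library, which shares the number 0 with 1 of the wild-type libraries. Without read counts the lists cannot tell a lost peak from one just under the call threshold.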
